A study of Mus musculus with 9 samples.

Results

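The genes that encode integrin and laminin chains were examined in mouse skin. They were taken by symbol: integrin alpha genes (Itga followed by a number, with or without b, or by d, e, l, v or x), integrin beta genes (Itgb followed by a number, and Itgb2l and Itgbl1) and laminin alpha, beta and gamma genes (Lama, Lamb or Lamc followed by a digit). This gave 38 genes of the 49585 in each table, namely 17 integrin alpha, 10 integrin beta and 11 laminin chain genes. By general knowledge of where each chain is best known, 10 were placed among epithelial chains, 14 among mesenchymal chains (fibroblasts, vessels, muscle), 9 among leukocyte and platelet chains and 5 among broad or other chains. RNA of 9 skin libraries was sequenced, 3 from mice labelled IL-6 KO (strain C57BL/6, genotype IL-6 -/-), 3 from wild type BALB/c mice and 3 from wild type C57BL/6 mice. The mice came from a supplier at 4 to 5 weeks of age and had 2 weeks to settle in. At 6 weeks all 3 groups were shaved, on day 0, then had 7 days without treatment, and their skin was taken on day 8. The protocol counts 6 IL-6 KO, 3 BALB/c and 3 C57BL/6 mice and does not tie a library to 1 mouse, so the p-values below measure the spread between libraries. The sex of the mice and the part of the body were not stated by the labels.

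Integrins are receptors made of 1 alpha and 1 beta chain that span the cell membrane and hold cells to the surrounding matrix or to other cells. Laminins are cross-shaped proteins of 1 alpha, 1 beta and 1 gamma chain and are a main component of basement membranes, the thin sheets beneath epithelia and around muscle fibres, nerves and vessels. In skin, a laminin that holds the alpha3 and beta3 chains (genes Lama3 and Lamb3) anchors the epidermis. Basal keratinocytes bind it through the integrin of alpha6 and beta4 (Itga6 and Itgb4), the receptor of hemidesmosomes, and inherited loss of any of these chains causes blistering.

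IL-6 KO replicate 2 stood apart from its group, and BALB/c replicate 2 did so in Xist and platelet genes. Il6 reads were present under the IL-6 KO label. Il6 had 6, 24 and 1 reads in the 3 libraries with the IL-6 KO label, 0, 2 and 0 reads in BALB/c and 2, 1 and 0 reads in C57BL/6. The label is therefore used here only as a name. Whether those reads lie in a deleted part of the gene cannot be read from gene counts. The libraries held 3843953 to 4476346 reads in exons in the group labelled IL-6 KO, 6115739 to 6242332 in BALB/c and 6083876 to 6882193 in C57BL/6. A list of 10 hair shaft and matrix genes summed to 14938, 2904 and 11367 CPM (reads scaled to a common library size by the TMM method) in IL-6 KO replicates 1, 2 and 3, against 7.48 to 14.2 in BALB/c and 7.98 to 92.4 in C57BL/6, and none of the 10 was at 0 in all libraries. In the comparisons of libraries labelled IL-6 KO, leaving out IL-6 KO replicate 2 changed some calls of chain genes. For those genes the value without it is given too. For BALB/c over C57BL/6 only counts of calls without that library are given. Calls below are with all libraries unless a library is said to be left out. BALB/c replicate 2 had 130 reads of Xist, the X-inactivation RNA, where the other 8 libraries had 0 to 5, and 31 reads of the platelet gene Gp9, which had 0 reads elsewhere. Across genes, however, BALB/c replicate 1 was the library apart in its group. The chi-square of read counts per degree of freedom was 35.2 between replicates 1 and 2, 32.9 between 1 and 3 and 4.35 between 2 and 3. The 5 adipocyte genes read summed to 6117, 1374 and 1363 CPM in BALB/c replicates 1, 2 and 3. Skin markers were present: 5 basal keratinocyte genes summed to 4961 to 8650 CPM in libraries labelled IL-6 KO, 6967 to 9056 in BALB/c and 7505 to 11989 in C57BL/6. The 8 skeletal muscle genes read summed to 7749 to 8655, 21414 to 46468 and 41146 to 75626 CPM in the same order of groups, so each library also held muscle RNA. In such bulk samples, fewer cells of a type and less RNA per cell cannot be told apart.

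Set per length of exon, as CPM per kilobase, the chain genes spanned a wide range of levels. Itgb1, the beta chain shared by most matrix-binding integrins, had the highest mean over the 9 libraries, 66.0 CPM per kilobase, ahead of Itgb5 (39.5), Lamb2 (32.1) and Lamc1 (30.7). Per kilobase, 17 of the 38 genes averaged over 5 CPM, 11 from 1 to 5 and 10 under 1. Itgb1 varied little for its level: it had 48.1, 73.0 and 57.9 CPM per kilobase in libraries labelled IL-6 KO, 61.5, 69.8 and 62.0 in BALB/c and 74.3, 63.1 and 83.7 in C57BL/6, and these ranges overlap. The epithelial pair followed, with mean levels of 20.2 CPM per kilobase for Itgb4 and 17.0 for Itga6, where Itgb4 spanned 9.02 to 31.2 and Itga6 10.5 to 22.0 over the libraries, so the order of these 2 neighbours is within their spread. At the other end, Lama1 averaged 0.393 CPM per kilobase. Itgad, a leukocyte alpha chain, had 0 to 2 reads per library, and Itgb2l had 0 reads in all 9, which allows a level of up to 0.436 to 0.780 CPM in a library before TMM scaling (3 reads of its total, counting error only). These 2 genes were not tested, and the other 36 were.

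**Figure D1:**
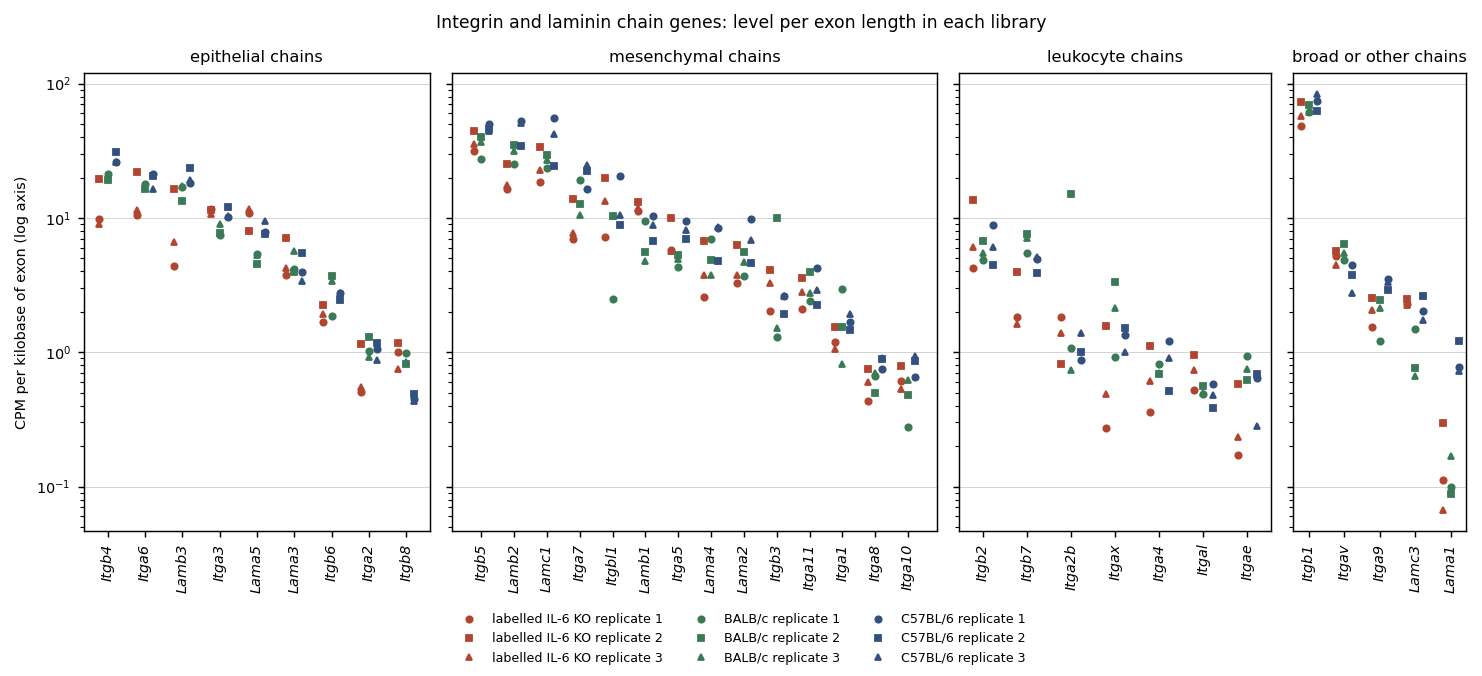
Level of each chain gene per kilobase of exon in each library (log axis, CPM per kilobase), by class of chain and ordered by mean level; colours mark groups and symbols mark replicates, and Itgad, Itgb2l and 1 further gene are not drawn. Itgb1 is highest by its mean, at 48.1 to 83.7, Lama1 is at 0.722 to 1.21 in C57BL/6 and at most 0.299 elsewhere, and the Itga2b and Itgb3 points of BALB/c replicate 2 lie far above the other libraries.

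Groups were compared with edgeR's quasi-likelihood F test on exon read counts, fitted on 14415 genes and adjusted over them by the Benjamini-Hochberg method (adjusted p, threshold 0.05). Set against C57BL/6, libraries labelled IL-6 KO gave 6 called chain genes of 36 (16.7%), 1 higher and 5 lower, where 35.2% of all genes tested were called (19.2% higher, 16.0% lower). The share called among chain genes was below that background. Scaled by library size alone, 67.8% of the called genes were higher in this comparison, against 54.6% with TMM, and the median of all genes was 0.15. With TMM, the median log2 fold change of the 36 chain genes was -0.33, against 0.01 for all genes tested. The values of the 2 groups did not overlap for 11 of 36 (30.6%), against 47.5% of all genes tested. Against BALB/c, the libraries labelled IL-6 KO gave 5 called chain genes (13.9%), 4 higher and 1 lower, where 37.3% of all genes were called (19.9% higher, 17.4% lower), with a median of -0.08 and 8 genes without overlap (22.2%, against 50.7%). BALB/c against C57BL/6 gave 2 (5.56%), both lower, where 3.41% of all genes were called (1.63% higher, 1.78% lower); 47.9% of those calls were higher with TMM and 58.8% with library size alone. There the median was -0.30, against -0.01 for all genes, and 14 chain genes did not overlap (38.9%, against 30.2%). In all, 11 chain genes were called in at least 1 comparison, 25 of the tested ones in none, and Lama1 and Lama5 in 2. The 3 comparisons share groups, so the same libraries enter 2 of them each time.

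**Figure D2:**
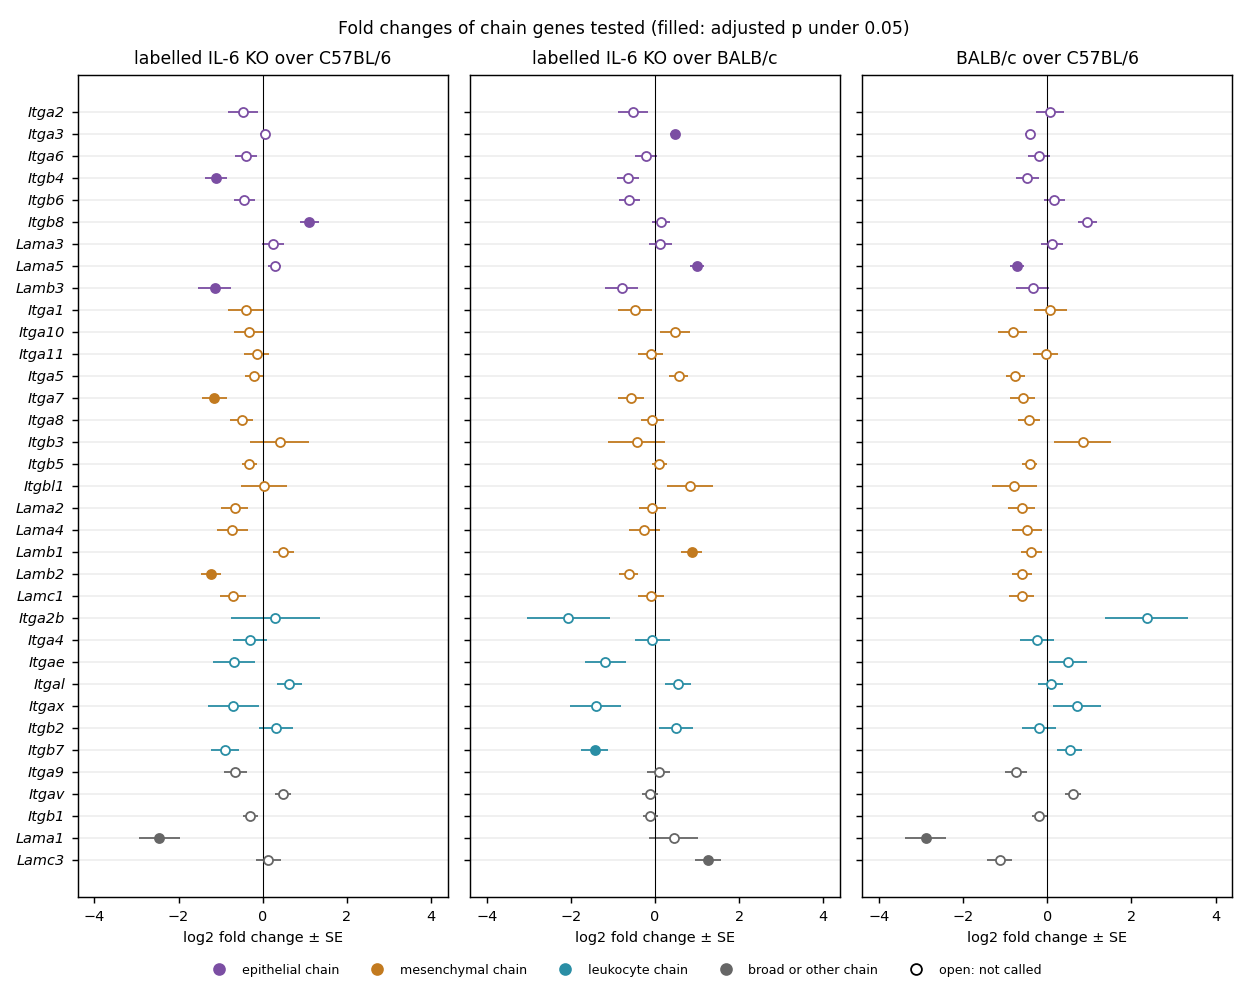
Log2 fold change ± SE of the tested chain genes, other than 1 that is not drawn, in each comparison (horizontal axis), by class of chain; filled points have an adjusted p under 0.05. The calls number 6 for libraries labelled IL-6 KO over C57BL/6, 5 for libraries labelled IL-6 KO over BALB/c and 2 for BALB/c over C57BL/6, and Itga2b has the widest errors.

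Many of these calls changed when 1 library was left out. IL-6 KO replicate 2 was the highest of its 3 libraries for 33 of the 36 tested chain genes (91.7%), against 38.3% of all genes tested. Without it, 18 chain genes were called for libraries labelled IL-6 KO over C57BL/6, 2 higher and 16 lower (50.0%, where 46.1% of all genes were called), and their median log2 fold change was -0.54. The lower ones then were 4 epithelial, 7 mesenchymal, 2 leukocyte and 3 broad or other chains, and the higher ones were 2 epithelial chains, Lama5 and Itgb8. Without it, 13 were called over BALB/c, 4 higher and 9 lower (36.1%, where 47.8% of all genes were called). All-gene shares were then 24.3% higher and 21.8% lower over C57BL/6, and 25.2% higher and 22.5% lower over BALB/c. In these counts IL-6 KO replicates 1 and 3 alone stand for their group, assumed to vary like the others. BALB/c over C57BL/6 then had 5 called chain genes (13.9%), where 6.62% of all genes were called, against 2 and 3.41% with all libraries. Of these, 1 epithelial chain was higher, and 2 epithelial, 1 mesenchymal and 1 broad or other chain were lower. That comparison holds no IL-6 KO library, but all groups share 1 estimate of the spread in the fit. How much of the other rises in calls came through that estimate was not tested. Without BALB/c replicate 2, called chain genes numbered 5 for libraries labelled IL-6 KO over C57BL/6 (31.3% of all genes), 4 over BALB/c (25.8% of all genes) and 0 for BALB/c over C57BL/6 (1.21% of all genes). All 10 hair shaft and matrix genes were called higher in libraries labelled IL-6 KO over both other groups, and 7 of 8 skeletal muscle genes were called lower over both. Their part in the chain genes' values was not tested.

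Among the laminin genes, the calls of the 3 beta chains differed by comparison. Lamb3 and Lamb2 were lower in the group labelled IL-6 KO than in C57BL/6, Lamb1 was higher in libraries labelled IL-6 KO than in BALB/c, and the alpha chain Lama5 was also higher there. With all libraries, no single comparison called beta chains in opposite directions. Over BALB/c without IL-6 KO replicate 2, Lamb3 (-1.52) and Lamb2 (-0.86) were called lower and Lamb1 higher (0.8, adjusted p = 0.0434). To show what these genes look like around a start, the 300 bases from 250 before to 50 after a start annotated by RefSeq (GRCm38.p6) are printed 5′ to 3′ along the gene for these 4 genes (for Lamb3, the first of 2 listed starts), with matches to the GC box in capitals (GGGCGG on either strand).

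Lama5 (chr2:180225810-180226109, minus strand): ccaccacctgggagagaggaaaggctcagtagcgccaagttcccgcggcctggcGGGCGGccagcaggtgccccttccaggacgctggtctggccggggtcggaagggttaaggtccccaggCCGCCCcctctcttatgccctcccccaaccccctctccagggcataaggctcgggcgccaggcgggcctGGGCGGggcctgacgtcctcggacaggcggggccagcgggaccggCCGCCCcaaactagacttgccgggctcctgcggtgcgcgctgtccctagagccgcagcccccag

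Lamb1 (chr12:31265043-31265342, plus strand): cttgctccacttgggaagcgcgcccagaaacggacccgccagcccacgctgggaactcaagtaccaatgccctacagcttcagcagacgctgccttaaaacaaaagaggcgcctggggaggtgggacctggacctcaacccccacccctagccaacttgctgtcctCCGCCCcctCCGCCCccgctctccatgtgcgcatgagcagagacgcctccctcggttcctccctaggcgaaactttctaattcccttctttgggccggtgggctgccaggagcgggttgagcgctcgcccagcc

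Lamb2 (chr9:108479612-108479911, plus strand): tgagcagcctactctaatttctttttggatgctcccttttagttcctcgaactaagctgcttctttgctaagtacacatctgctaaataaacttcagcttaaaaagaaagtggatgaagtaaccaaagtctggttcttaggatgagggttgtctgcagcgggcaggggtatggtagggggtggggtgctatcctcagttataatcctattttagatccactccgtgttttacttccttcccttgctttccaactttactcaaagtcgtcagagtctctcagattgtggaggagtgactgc

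Lamb3 (chr1:193301744-193302043, plus strand): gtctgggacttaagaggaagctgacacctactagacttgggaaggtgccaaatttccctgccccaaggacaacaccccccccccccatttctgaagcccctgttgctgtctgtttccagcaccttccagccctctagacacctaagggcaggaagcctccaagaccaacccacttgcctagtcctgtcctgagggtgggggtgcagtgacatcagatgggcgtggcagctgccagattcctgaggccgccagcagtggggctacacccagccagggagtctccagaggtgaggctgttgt

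In these windows Lama5 held 4 GC boxes and Lamb1 held 2, and Lamb2 and Lamb3 held none. Searched on both strands, with overlapping matches counted, the AP-1 motif, written TGANTCA, was in none of the 4 windows. Nor was the TATA box, written TATAAA, or the RUNX motif, written TGTGGT. Over the chain genes, 24 of 38 had a window, 27 windows in all, and the GC box was in 12 of them (44.4%, against 35.7% of all 32851 windows). AP-1 was in 3 (11.1%, against 7.81%), RUNX in 3 (11.1%, against 16.8%) and the TATA box in 0 (against 13.6%). Of the 7 called chain genes with a window, Itgb8, Itgb7 and Itga3 are not printed. Itgb8, called higher over C57BL/6, and Itgb7, called lower over BALB/c, held 0 GC boxes. The windows of Itga3, called higher over BALB/c, held 3 and 1. A link between GC boxes and direction was not tested. A match describes letters only. The Lamb3 gene in the deposited tables begins upstream of its printed window, at 193207699 on chromosome 1.

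**Figure D3:**
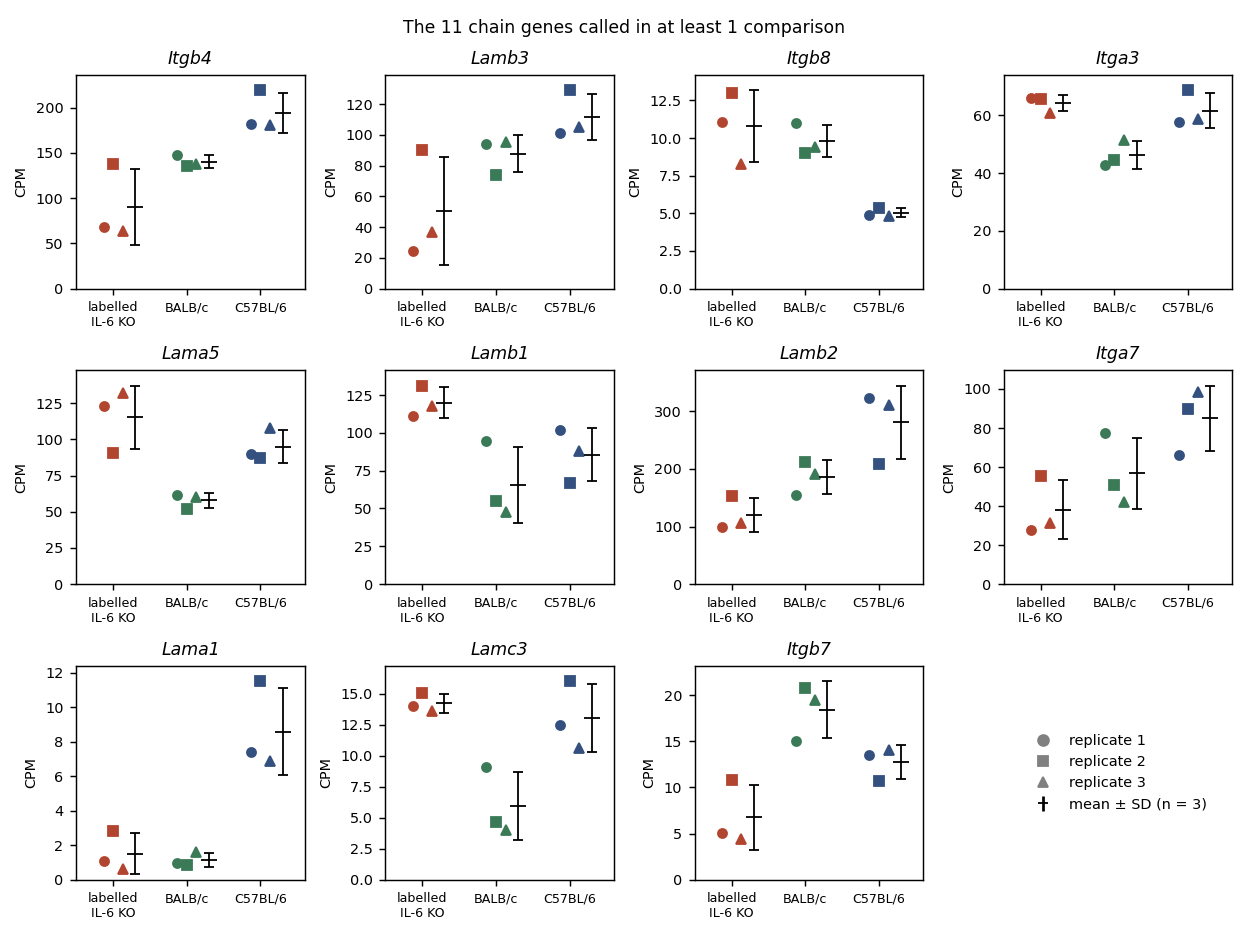
Level in CPM (vertical axes, from 0) of the 11 chain genes called in at least 1 comparison, by group and replicate, with the mean ± SD of each group (n = 3). Itgb8 lies at 4.83 to 5.37 in C57BL/6 and above 8 in the other 6 libraries, and Lama1 is at or under 2.85 outside C57BL/6.

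Lamb3 (chromosome 1, 193207699 to 193343878, GRCm38, plus strand) encodes the beta3 chain of the epidermal anchoring laminin. It had 24.3, 90.2 and 36.7 CPM in libraries labelled IL-6 KO, 94.2, 73.7 and 95.5 CPM in BALB/c and 101, 129 and 105 CPM in C57BL/6. The values of the group labelled IL-6 KO lie below all 3 C57BL/6 values, replicate 2 standing well above the other 2 libraries of its group. Lamb3 was lower than in C57BL/6 by a log2 fold change of -1.14 ± 0.391 (SE, n = 3 each; adjusted p = 0.0468), and -1.87 without IL-6 KO replicate 2 (adjusted p = 2.91e-04). Over BALB/c it was -0.79 ± 0.389 (adjusted p = 0.136), and -1.52 without that library (adjusted p = 7.25e-04). The call over C57BL/6 ended under 11 of 19 alternative settings, among them leaving out any library other than IL-6 KO replicate 2 (adjusted p = 0.0584 to 0.156).

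Its partner Lama3, the alpha3 chain (chromosome 18), was not called in any comparison. It had 40.5, 75.9 and 45.9 CPM in libraries labelled IL-6 KO, 44.9, 42.4 and 61.5 CPM in BALB/c and 42.3, 58.9 and 36.6 CPM in C57BL/6, where the log2 fold change was 0.24 ± 0.270 (adjusted p = 0.521). The groups overlap. The ratio of Lamb3 to Lama3 within a library, each per kilobase, needs no scaling between libraries. It was 1.17, 2.31 and 1.56 in libraries labelled IL-6 KO, 4.08, 3.38 and 3.02 in BALB/c and 4.63, 4.27 and 5.61 in C57BL/6, and none of the 3 groups overlaps another. Such ratios were chosen after the values were seen and are given with no test.

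**Figure D4:**
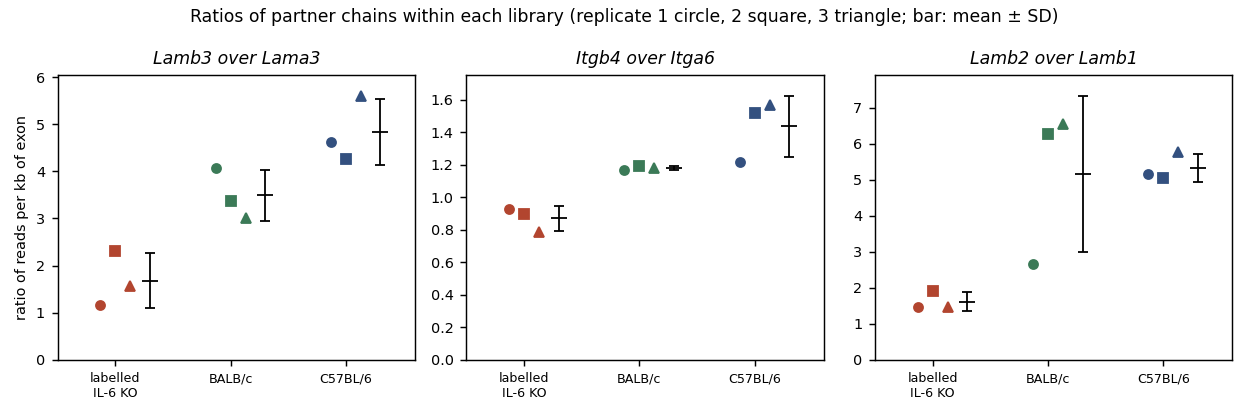
Ratios of partner chains within each library, per kilobase of exon (vertical axes, from 0), with mean ± SD (n = 3). Lamb3 over Lama3 is 1.17 to 2.31 in libraries labelled IL-6 KO, 3.02 to 4.08 in BALB/c and 4.27 to 5.61 in C57BL/6, and Itgb4 over Itga6 and Lamb2 over Lamb1 are also lowest in libraries labelled IL-6 KO.

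The other beta chains are known from deeper basement membranes. Lamb2 (chromosome 9, 108479736 to 108490530, plus strand), the beta2 chain of muscle, synapse and vessel laminins, had 98.9, 153 and 106 CPM in libraries labelled IL-6 KO, 154, 212 and 191 CPM in BALB/c and 323, 208 and 311 CPM in C57BL/6. It was lower in the group labelled IL-6 KO than in C57BL/6, with a log2 fold change of -1.23 ± 0.232 (adjusted p = 0.00376), and was not called against BALB/c (-0.63 ± 0.230, adjusted p = 0.0550) although these 2 groups do not overlap either. It was called lower than in BALB/c without IL-6 KO replicate 2 (-0.86, adjusted p = 0.0125). Lamb1 (chromosome 12, 31265234 to 31329644, plus strand), the beta1 chain that also joins Lama5 in the epidermal basement membrane, had 111, 131 and 118 CPM in libraries labelled IL-6 KO, 94.4, 55.0 and 47.5 CPM in BALB/c and 102, 67.1 and 87.8 CPM in C57BL/6. Its values in libraries labelled IL-6 KO lie above all 6 others. Over BALB/c the log2 fold change was 0.87 ± 0.254 (adjusted p = 0.0246), and over C57BL/6 it was 0.49 ± 0.252 (adjusted p = 0.161). The call over BALB/c ended without BALB/c replicate 2 (adjusted p = 0.0936), without BALB/c replicate 3 (0.0883) or without IL-6 KO replicate 3 (0.0637). Lamb2 over Lamb1, per kilobase within a library, was 1.46, 1.92 and 1.46 in libraries labelled IL-6 KO, 2.66, 6.28 and 6.55 in BALB/c and 5.16, 5.05 and 5.77 in C57BL/6, so the group labelled IL-6 KO lies below both others. Marker lists for tissues where Lamb2 is known were read too. In the group labelled IL-6 KO, 7 of 8 skeletal muscle, 5 of 6 endothelial and 3 of 4 Schwann cell genes were called lower than in C57BL/6. Of all genes, 16.0% were called lower there. Over BALB/c these counts were 7 of 8, 1 of 6 and 3 of 4, where 17.4% of all genes were called lower. The endothelial list summed to 130 to 171 CPM in libraries labelled IL-6 KO, 120 to 248 in BALB/c and 265 to 419 in C57BL/6, and the Schwann cell list to 76.0 to 144, 366 to 433 and 441 to 673 CPM in the same order, with no gene of either list at 0 in all libraries. Their part in the Lamb2 values was not tested.

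Among the laminin alpha chains, Lama5 and Lama1 were called and Lama2, Lama3 and Lama4 were not. Lama5 (chromosome 2, 180176373 to 180225859, minus strand), the alpha5 chain of epidermal and hair follicle basement membranes, had 123, 90.8 and 132 CPM in libraries labelled IL-6 KO, 61.5, 51.9 and 60.3 CPM in BALB/c and 90.2, 86.9 and 108 CPM in C57BL/6. BALB/c lies below all 6 other libraries, and the 2 other groups overlap. Lama5 was also called higher over C57BL/6 once IL-6 KO replicate 2 was left out (0.42, adjusted p = 0.0323). Libraries labelled IL-6 KO over BALB/c had a log2 fold change of 0.99 ± 0.165 (adjusted p = 0.00202) and was called under each alternative other than a minimum log2 fold change of 1. For BALB/c over C57BL/6 it was -0.71 ± 0.164 (adjusted p = 0.0486), a call that ended under 13 of 19 alternatives, leaving out any 1 library of either group among them.

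Lama1 (chromosome 17, 67697265 to 67822645, plus strand), the alpha1 chain best known from embryonic and kidney basement membranes, had 4, 14 and 3 reads in libraries labelled IL-6 KO, 6, 5 and 10 reads in BALB/c and 48, 77 and 37 reads in C57BL/6. In CPM these were 1.06, 2.85 and 0.637, then 0.955, 0.831 and 1.62, then 7.38, 11.5 and 6.87. Each C57BL/6 library is above each of the 6 others. Relative to C57BL/6, the log2 fold change was -2.46 ± 0.490 for libraries labelled IL-6 KO (adjusted p = 0.00479) and -2.89 ± 0.489 for BALB/c (adjusted p = 0.0133). Both share the C57BL/6 libraries and are not independent of each other. The call in libraries labelled IL-6 KO held under all 19 alternatives, at adjusted p of up to 0.0370. The call in BALB/c ended without C57BL/6 replicate 2 (0.0502), BALB/c replicate 1 (0.0606) or BALB/c replicate 2 (0.0817).

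Lamc3, the gamma3 chain (chromosome 2, 31887291 to 31946539, plus strand), had 14.0, 15.1 and 13.6 CPM in libraries labelled IL-6 KO, 9.07, 4.66 and 4.05 CPM in BALB/c and 12.5, 16.0 and 10.6 CPM in C57BL/6. BALB/c lies below all 6 others. Over BALB/c, libraries labelled IL-6 KO had a log2 fold change of 1.26 ± 0.307 (adjusted p = 0.0116), and BALB/c over C57BL/6 had one of -1.13 ± 0.303 (adjusted p = 0.0830). An opposite-strand gene shares 6.27% of the Lamc3 exon bases, and the labels do not state whether the counting used strand. Lamc1, the common gamma chain, had 152, 281 and 187 CPM in libraries labelled IL-6 KO, 195, 244 and 223 CPM in BALB/c and 459, 202 and 346 CPM in C57BL/6, which overlap. Lama2, the alpha chain of muscle and nerve laminin, spanned 53.4 to 103, 60.0 to 90.5 and 75.3 to 159 CPM in the same order. Lama4, the alpha chain of vessels and fat, spanned 31.2 to 81.2, 45.3 to 84.1 and 57.4 to 103 CPM. None of these 3 was called in any comparison with all libraries. Without IL-6 KO replicate 2, all 3 were lower in the group labelled IL-6 KO than in C57BL/6, with log2 fold changes of -0.99 for Lamc1 (adjusted p = 0.0276), -1.01 for Lama2 (adjusted p = 0.0243) and -1.19 for Lama4 (adjusted p = 0.0192).

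Turning to the epithelial integrins, Itgb4 (chromosome 11, 115974709 to 116008412, plus strand), the beta chain of the hemidesmosome receptor, had 68.5, 138 and 63.3 CPM in libraries labelled IL-6 KO, 148, 135 and 138 CPM in BALB/c and 182, 219 and 181 CPM in C57BL/6. The group labelled IL-6 KO lies below C57BL/6 throughout, while its replicate 2 lies within the BALB/c values. The log2 fold change over C57BL/6 was -1.11 ± 0.268 (adjusted p = 0.0116), and over BALB/c -0.64 ± 0.267 (adjusted p = 0.0857). Without IL-6 KO replicate 2 these were -1.56 (adjusted p = 7.79e-05) and -1.09 (adjusted p = 3.82e-04). An opposite-strand gene shares 7.66% of the Itgb4 exon bases. Its partner Itga6 had 94.7, 198 and 104 CPM in libraries labelled IL-6 KO, 163, 147 and 151 CPM in BALB/c and 191, 185 and 149 CPM in C57BL/6. It was not called with all libraries (-0.40 ± 0.258 over C57BL/6, adjusted p = 0.248), and was called without IL-6 KO replicate 2 (-0.82, adjusted p = 0.00237; over BALB/c -0.63, adjusted p = 0.00777). Per kilobase within a library, Itgb4 over Itga6 was 0.931, 0.895 and 0.786 in libraries labelled IL-6 KO, 1.17, 1.19 and 1.18 in BALB/c and 1.22, 1.52 and 1.57 in C57BL/6. All 3 groups are apart in this ratio, and IL-6 KO replicate 2 lies between the other 2 libraries of its group.

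The basal keratinocyte markers were read beside these epithelial chains. Of 5 genes (Krt5, Krt14, Krt15, Trp63 and Col17a1), 2 were called lower and none higher in libraries labelled IL-6 KO over C57BL/6. The list summed to 5020, 8650 and 4961 CPM in IL-6 KO replicates 1, 2 and 3. Krt5 (2420, 3600 and 2180 CPM) and Krt14 (1720, 3340 and 1920 CPM) were highest in replicate 2. So were Krt15 (369, 729 and 381 CPM) and Col17a1 (254, 788 and 287 CPM), as were 33 of the 36 tested chain genes. Trp63 alone of this list was highest in replicate 1 (261, 201 and 196 CPM). The part of these markers in the Itgb4 and Lamb3 values was not tested. Those called were Krt15 (-2.33 ± 0.371, adjusted p = 0.00174) and Col17a1. Krt14, the main basal keratin, was not called (0.50 ± 0.286, adjusted p = 0.199).

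Itga3 (chromosome 11, 95044474 to 95076801, minus strand), the alpha3 chain that binds epidermal laminins with beta1, had 66.1, 65.6 and 60.9 CPM in libraries labelled IL-6 KO, 42.7, 44.4 and 51.6 CPM in BALB/c and 57.5, 68.6 and 58.7 CPM in C57BL/6. BALB/c lies below all 6 others. The log2 fold change of libraries labelled IL-6 KO over BALB/c was 0.47 ± 0.124 (adjusted p = 0.0157), lost without BALB/c replicate 1 (0.0670) or 2 (0.0749) and with the deposited Expression value column (0.0501). That of BALB/c over C57BL/6 was -0.41 ± 0.123 (adjusted p = 0.114).

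Itgb8 (chromosome 12, 119158022 to 119238802, minus strand) encodes the beta8 chain, which with alphav binds the latent form of TGF-beta and releases it. It had 11.1, 13.0 and 8.28 CPM in libraries labelled IL-6 KO, 11.0, 8.98 and 9.41 CPM in BALB/c and 4.92, 5.37 and 4.83 CPM in C57BL/6, on 26 to 69 reads a library. C57BL/6 lies below all 6 others. The log2 fold change of libraries labelled IL-6 KO over C57BL/6 was 1.10 ± 0.227 (adjusted p = 0.00567), and that of BALB/c was 0.95 ± 0.224 (adjusted p = 0.0524). Itgav, its alphav partner, had 56.3, 61.5 and 48.2 CPM in libraries labelled IL-6 KO, 52.2, 68.8 and 58.9 CPM in BALB/c and 48.1, 40.3 and 29.5 CPM in C57BL/6. C57BL/6 is lowest here too, but no comparison of Itgav was called (0.49 ± 0.191 for libraries labelled IL-6 KO, adjusted p = 0.0727; 0.61 ± 0.190 for BALB/c, adjusted p = 0.126). Itgb6, the epithelial beta chain that also pairs with alphav, and Itga2, a keratinocyte collagen receptor chain, were not called in any comparison with all libraries. Itga2, without IL-6 KO replicate 2, was called lower over C57BL/6 (-0.97, adjusted p = 0.0359) and over BALB/c (-1.02, adjusted p = 0.0278). Itgb6 spanned 11.9 to 15.9 CPM in libraries labelled IL-6 KO, 13.2 to 26.3 in BALB/c and 17.4 to 19.7 in C57BL/6, and Itga2 spanned 2.12 to 4.89, 3.89 to 5.49 and 3.71 to 4.92 CPM.

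Among the mesenchymal integrins, Itga7 alone was called with all libraries, against C57BL/6. Itga7 (chromosome 10, 128933813 to 128958277, plus strand), the alpha7 chain of the muscle laminin receptor, had 28.0, 55.4 and 31.2 CPM in libraries labelled IL-6 KO, 77.2, 50.7 and 42.3 CPM in BALB/c and 66.4, 89.8 and 98.6 CPM in C57BL/6. The log2 fold change of libraries labelled IL-6 KO over C57BL/6 was -1.15 ± 0.303 (adjusted p = 0.0170), and over BALB/c -0.57 ± 0.303 (adjusted p = 0.168). Leaving out IL-6 KO replicate 2, it was called over BALB/c as well (-0.94, adjusted p = 0.0214). The call ended without C57BL/6 replicate 3 (0.0579), IL-6 KO replicate 1 (0.0640) or IL-6 KO replicate 3 (0.0708). The skeletal muscle list moved the same way, as given above, with 7 of 8 genes called lower in libraries labelled IL-6 KO over C57BL/6 and over BALB/c, and its part in the Itga7 values was not tested. Within the libraries labelled IL-6 KO the muscle sums were 8650, 8655 and 7749 CPM in replicates 1, 2 and 3. Itga7 was highest in replicate 2 of that group, as were 33 of the 36 tested chain genes in all.

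The remaining mesenchymal integrin genes include Itgb5, a vitronectin receptor beta chain, and Itga5, the fibronectin receptor alpha chain. Itgb5 had 107, 150 and 119 CPM in libraries labelled IL-6 KO, 93.0, 134 and 123 CPM in BALB/c and 167, 154 and 149 CPM in C57BL/6. Itga5 had 25.7, 44.4 and 25.0 CPM in libraries labelled IL-6 KO, 19.3, 23.4 and 22.1 CPM in BALB/c and 42.4, 30.9 and 36.2 CPM in C57BL/6. BALB/c lies below C57BL/6 for both, with log2 fold changes of -0.42 ± 0.175 for Itgb5 (adjusted p = 0.225) and -0.76 ± 0.232 for Itga5 (adjusted p = 0.121), neither called. Without IL-6 KO replicate 2, both were called lower in libraries labelled IL-6 KO over C57BL/6, Itga5 at -0.53 (adjusted p = 0.0298) and Itgb5 at -0.47 (adjusted p = 0.0463). Across the 14 mesenchymal chains, BALB/c over C57BL/6 had 12 values below 0, a median log2 fold change of -0.53 and no call. The fibroblast list of 6 genes, with none called in any comparison and none at 0, summed to 4987 to 16168 CPM in libraries labelled IL-6 KO, 3834 to 11449 in BALB/c and 7822 to 51082 in C57BL/6. The collagen receptor alpha chains Itga1, Itga10 and Itga11 and the fibroblast and smooth muscle chain Itga8 stayed between 1.43 and 21.7 CPM, and none was called. Itgbl1, an integrin-like secreted protein, ranged from 10.5 CPM in BALB/c replicate 1 to 86.4 CPM in C57BL/6 replicate 1 and was not called. Same-strand exons of a predicted gene cover 33.5% of Itga10, so its reads are uncertain.

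Among the 9 leukocyte and platelet chains, 7 were tested and 1 was called. Itgb7 (chromosome 15, 102215995 to 102231935, minus strand) pairs with alphaE, which binds E-cadherin and keeps T cells within epithelia, or with alpha4. It had 5.02, 10.8 and 4.46 CPM in libraries labelled IL-6 KO, 15.0, 20.8 and 19.5 CPM in BALB/c and 13.5, 10.7 and 14.1 CPM in C57BL/6. The group labelled IL-6 KO lies below BALB/c, with a log2 fold change of -1.43 ± 0.320 (adjusted p = 0.00794), and it overlaps C57BL/6 through its replicate 2 (-0.90 ± 0.323, adjusted p = 0.0545). Without that library the difference to C57BL/6 was -1.43 (adjusted p = 0.00190). Its partner Itgae had 3, 13 and 5 reads in libraries labelled IL-6 KO, 27, 17 and 21 reads in BALB/c and 19, 21 and 7 reads in C57BL/6, and was not called with all libraries (-1.18 ± 0.493 over BALB/c, adjusted p = 0.0868), but was without that library (-1.88, adjusted p = 0.0164). Of 5 T cell marker genes, 0 were called in libraries labelled IL-6 KO over BALB/c and 1 was called lower over C57BL/6. Without IL-6 KO replicate 2, 2 of the 5 were called lower over BALB/c (median -1.26) and 4 over C57BL/6 (median -1.86). With all libraries the list summed to 7.85 to 25.2 CPM in libraries labelled IL-6 KO, 17.4 to 27.1 in BALB/c and 26.6 to 31.0 in C57BL/6, with no gene at 0 in all libraries. Its part in the Itgb7 values was not tested. Itga4, the other partner, had only 52.4% of its reads mapped uniquely and shares 8.04% of its exon bases with an opposite-strand gene. It spanned 5.02 to 15.7 CPM in libraries labelled IL-6 KO, 9.65 to 11.5 in BALB/c and 7.16 to 16.9 in C57BL/6.

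Itgb2, the beta chain common to leukocyte integrins, had 13.0, 41.3 and 18.7 CPM in libraries labelled IL-6 KO, 15.0, 20.5 and 16.7 CPM in BALB/c and 27.1, 13.7 and 18.6 CPM in C57BL/6. Its partner Itgal, of lymphocytes, spanned 3.44 to 6.31, 3.18 to 3.66 and 2.54 to 3.84 CPM in the same order, and its partner Itgax, of dendritic cells, 1.32 to 7.53, 4.46 to 16.0 and 4.83 to 7.31 CPM. The groups overlap for all 3 genes and none was called with all libraries. Itgax, without IL-6 KO replicate 2, was called lower over C57BL/6 (-1.73, adjusted p = 0.0446) and over BALB/c (-2.44, adjusted p = 0.00974). The leukocyte marker list of 5 genes, none called in any comparison, summed to 108, 334 and 193 CPM in libraries labelled IL-6 KO. Itgb2, Itgal and Itgax were highest in replicate 2 of that group, as were 33 of the 36 tested chain genes in all. Of 5 neutrophil genes, Ly6g was at 0 in all libraries and only S100a8 and S100a9 were tested. Both were called higher in libraries labelled IL-6 KO over both other groups. Elane and Mpo had too few reads to be tested. Elane had 0 reads in the group labelled IL-6 KO and 8 in each other group. Mpo had 2 there, 16 in BALB/c and 0 in C57BL/6. The list summed to 25.1 to 61.7 CPM in libraries labelled IL-6 KO, 4.49 to 8.60 in BALB/c and 1.30 to 6.71 in C57BL/6. The part of these lists in the leukocyte chains' values was not tested.

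The platelet pair stood out in 1 library. Itga2b, the alphaIIb chain of megakaryocytes and platelets, had 10.0, 4.48 and 7.64 CPM in libraries labelled IL-6 KO, 5.89, 81.7 and 4.05 CPM in BALB/c and 4.77, 5.52 and 7.61 CPM in C57BL/6. Its partner Itgb3 had 11.9, 24.0 and 19.3 CPM in libraries labelled IL-6 KO, 7.64, 59.2 and 8.92 CPM in BALB/c and 15.5, 11.3 and 15.4 CPM in C57BL/6. Both peaks are in BALB/c replicate 2. The platelet chemokine Pf4 had 286 CPM there and 15.1 to 41.3 CPM in the other 8 libraries, and the 5 platelet markers, of which Itga2b is one, summed to 405 CPM there and 27.7 to 52.7 elsewhere. With all libraries Itga2b was not called for BALB/c over C57BL/6 (2.36 ± 0.987, adjusted p = 0.232), and without BALB/c replicate 2 the log2 fold change was -0.25 (adjusted p = 0.814). For Itgb3, the log2 fold change of libraries labelled IL-6 KO over BALB/c was -0.44 ± 0.685 with all libraries (adjusted p = 0.636) and 1.13 without BALB/c replicate 2 (adjusted p = 0.0334). That library alone thus set the direction of both genes.

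**Figure D5:**
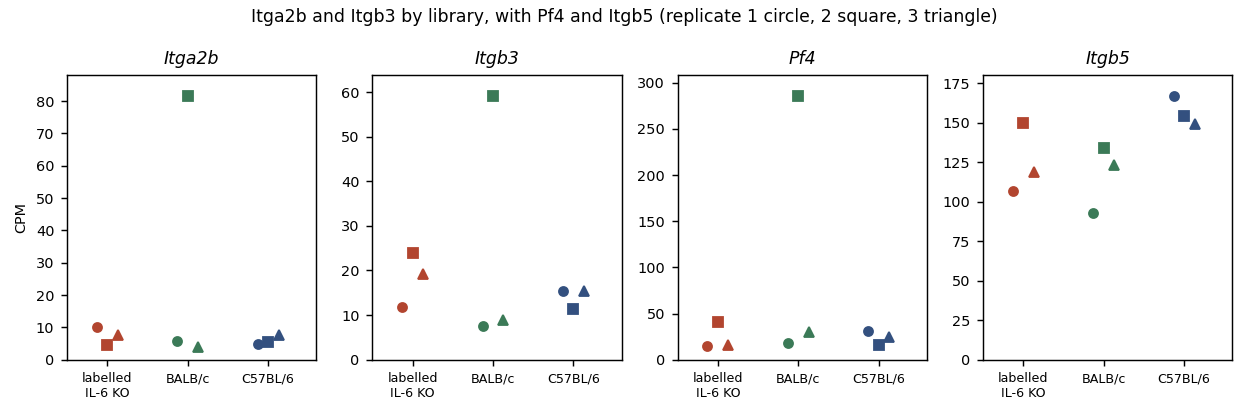
Level in CPM (vertical axes, from 0) of Itga2b, Itgb3, Pf4 and Itgb5 by group and replicate, with no mean drawn. BALB/c replicate 2 has 81.7, 59.2 and 286 CPM of the first 3, far above the other 8 libraries, while Itgb5 does not show this.

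Among the broad chains, Itgb1 had log2 fold changes of -0.30 ± 0.182 for libraries labelled IL-6 KO over C57BL/6 (adjusted p = 0.219), -0.11 ± 0.182 over BALB/c (adjusted p = 0.659) and -0.19 ± 0.181 for BALB/c over C57BL/6 (adjusted p = 0.607). Itga9, a tenascin and osteopontin receptor chain, spanned 11.9 to 19.5 CPM in libraries labelled IL-6 KO, 9.39 to 19.0 in BALB/c and 22.2 to 27.2 in C57BL/6. C57BL/6 lies above both other groups, without a call when all libraries are used (-0.65 ± 0.268 for libraries labelled IL-6 KO, adjusted p = 0.0854; -0.74 ± 0.265 for BALB/c, adjusted p = 0.169). Only 38.4% of its reads mapped uniquely. Both Itga9 (-0.84, adjusted p = 0.0416) and Itgb1 (-0.48, adjusted p = 0.0432) were called lower over C57BL/6 without IL-6 KO replicate 2. Of the 37 chain genes with reads, 33 had over 95% of them unique.

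Genes that work beside these chains were read from lists written from general knowledge. Of 7 hemidesmosome and anchoring fibril genes, 4 fell and none rose in libraries labelled IL-6 KO over C57BL/6 (57.1% called, median -1.01), where 35.2% of all genes were called and 16.0% were lower. The 4 were Dst, which ties keratins to the hemidesmosome (-1.54 ± 0.245, adjusted p = 0.00170), its plakin relative Plec (-1.01 ± 0.205, adjusted p = 0.00528), Col17a1, a transmembrane collagen of the hemidesmosome (-1.41 ± 0.402, adjusted p = 0.0235), and Col7a1, the anchoring fibril collagen (-1.38 ± 0.405, adjusted p = 0.0265). Dst had 229, 450 and 276 CPM in libraries labelled IL-6 KO, 764, 745 and 875 CPM in BALB/c and 917, 993 and 872 CPM in C57BL/6, so it did not overlap between that group and either other group. Over BALB/c, 2 fell, Dst (-1.32 ± 0.244, adjusted p = 0.00332) and Cd151, a tetraspanin partner of laminin-binding integrins (-0.53 ± 0.173, adjusted p = 0.0374). BALB/c over C57BL/6 gave 0 calls in this list. Without IL-6 KO replicate 2, 5 of 7 fell over C57BL/6 and 5 of 7 over BALB/c, where 46.1% and 47.8% of all genes were called. The Col17a1 call ended without IL-6 KO replicate 1 or 3 or C57BL/6 replicate 2, and the Col7a1 call without IL-6 KO replicate 3 or C57BL/6 replicate 2 or 3. The Cd151 call ended without IL-6 KO replicate 1 or 3 or BALB/c replicate 1 or 2. Krt5, Krt14 and Col17a1 are in the basal keratinocyte list too. Over C57BL/6, Krt5 (-0.42 ± 0.281, adjusted p = 0.266) and Krt14 (0.50 ± 0.286, adjusted p = 0.199) were not called. In the same comparison 7 of 8 skeletal muscle and 3 of 4 Schwann cell genes were called lower. The part of these cell types in the values of Dst and Plec was not tested.

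Of 13 basement membrane and laminin receptor genes, 2 rose and 4 fell in libraries labelled IL-6 KO over C57BL/6, 1 rose and 1 fell over BALB/c, and 1 fell in BALB/c over C57BL/6. The shares called were 46.2%, 15.4% and 7.69%, against 35.2%, 37.3% and 3.41% of all genes. Fras1, a protein beneath the epidermal basement membrane, had 19.0, 14.0 and 20.0 CPM in libraries labelled IL-6 KO, 1.91, 3.33 and 4.22 CPM in BALB/c and 8.76, 4.03 and 10.2 CPM in C57BL/6, a log2 fold change of 2.48 ± 0.392 over BALB/c (adjusted p = 0.00159). Fras1 also rose over C57BL/6 (1.21 ± 0.362, adjusted p = 0.0281). Its relative Frem2 fell over C57BL/6 (-0.99 ± 0.212, adjusted p = 0.00649), as did Dag1, the dystroglycan laminin receptor (-0.63 ± 0.137, adjusted p = 0.00730), and Npnt, a ligand of the alpha8 chain (-1.33 ± 0.383, adjusted p = 0.0239). Npnt also fell over BALB/c (-1.29 ± 0.382, adjusted p = 0.0263), although the 2 groups overlap. Both Npnt calls ended without IL-6 KO replicate 1 or 3, the first also without C57BL/6 replicate 1 or 3 and the second without BALB/c replicate 2 or 3. Bcam, a receptor for Lama5, had 130, 121 and 123 CPM in libraries labelled IL-6 KO, 133, 130 and 145 CPM in BALB/c and 173, 217 and 219 CPM in C57BL/6. It fell in libraries labelled IL-6 KO (-0.70 ± 0.132, adjusted p = 0.00364) and in BALB/c (-0.58 ± 0.131, adjusted p = 0.0476) over C57BL/6, which both share. The call in BALB/c ended under 15 of 19 alternatives, leaving out any library of its 2 groups other than C57BL/6 replicate 1 among them.

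Of 18 genes that link integrins to actin, 2 rose and 8 fell in libraries labelled IL-6 KO over C57BL/6, and 3 rose and 4 fell over BALB/c. These are 55.6% and 38.9% of the list, against 35.2% and 37.3% of all genes. Fermt2, a kindlin that activates beta chains, had 37.8, 60.5 and 44.4 CPM in libraries labelled IL-6 KO, 101, 123 and 111 CPM in BALB/c and 125, 107 and 162 CPM in C57BL/6, and fell over C57BL/6 (-1.46 ± 0.208, adjusted p = 0.00110) and over BALB/c (-1.23 ± 0.207, adjusted p = 0.00214). Tns1, a tensin, fell over C57BL/6 (-1.35 ± 0.309, adjusted p = 0.00904), and so did the adhesion protein Kank2 (-0.86 ± 0.187, adjusted p = 0.00713). Parvb, a parvin of muscle, fell over BALB/c (-1.36 ± 0.277, adjusted p = 0.00509). The kinases of adhesion sites rose over BALB/c, Src (0.66 ± 0.142, adjusted p = 0.00680) and Ptk2 (0.64 ± 0.139, adjusted p = 0.00688). BALB/c over C57BL/6 gave 2 calls (11.1%, against 3.41% of all genes), both talins, which tie beta chains to actin: Tln2 (-0.81 ± 0.168, adjusted p = 0.0348) and Tln1 (-0.63 ± 0.133, adjusted p = 0.0385). The Tln2 call ended under 8 and the Tln1 call under 11 of 19 alternatives, both of them without any 1 BALB/c library. Both talins also fell in libraries labelled IL-6 KO over C57BL/6, Tln2 (-0.95 ± 0.169, adjusted p = 0.00293) and Tln1 (-0.50 ± 0.133, adjusted p = 0.0172). In that comparison Parvb fell too (-1.03 ± 0.277, adjusted p = 0.0186) and Src rose (0.46 ± 0.141, adjusted p = 0.0300). Tns1 also fell in libraries labelled IL-6 KO over BALB/c (-1.17 ± 0.307, adjusted p = 0.0156).

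Of 11 tested integrin ligand genes, 1 rose and 2 fell in libraries labelled IL-6 KO over C57BL/6, 3 rose and none fell over BALB/c, and 1 fell in BALB/c over C57BL/6. The shares called were 27.3%, 27.3% and 9.09%, against 35.2%, 37.3% and 3.41% of all genes. Tnc, tenascin-C, a matrix protein bound by alpha9 and alphav integrins, had 87.0, 129 and 88.5 CPM in libraries labelled IL-6 KO, 9.71, 5.82 and 8.11 CPM in BALB/c and 27.8, 17.2 and 15.2 CPM in C57BL/6. The 3 groups do not overlap, and the log2 fold change was 2.33 ± 0.270 for libraries labelled IL-6 KO over C57BL/6 (adjusted p = 5.25e-04), 3.68 ± 0.294 over BALB/c (adjusted p = 1.26e-04) and -1.35 ± 0.289 for BALB/c over C57BL/6 (adjusted p = 0.0401). Both calls in libraries labelled IL-6 KO held under all 19 alternatives, whereas that of BALB/c over C57BL/6 ended under 11. Vtn, vitronectin, fell in libraries labelled IL-6 KO over C57BL/6 (-1.91 ± 0.327, adjusted p = 0.00237), on 12 to 22 reads a library against 58 to 106, and so did Ltbp1, which stores latent TGF-beta (-0.74 ± 0.196, adjusted p = 0.0172; the call ended without IL-6 KO replicate 1 or 3 or C57BL/6 replicate 1 or 3). Over BALB/c, Tgfb1, the TGF-beta that beta8 and beta6 integrins release (0.66 ± 0.198, adjusted p = 0.0274), and Spp1, osteopontin (1.27 ± 0.442, adjusted p = 0.0469), rose. Spp1 had 10.8, 33.8 and 10.2 CPM in libraries labelled IL-6 KO and 5.57, 8.65 and 8.60 CPM in BALB/c, and without IL-6 KO replicate 2 its log2 fold change was 0.46 (adjusted p = 0.145). The Tgfb1 call ended under 9 of 19 alternatives, without any 1 BALB/c library or IL-6 KO replicate 2 or 3 among them.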

How the data were processed

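Total RNA of skin was sequenced in 9 libraries. Per the labels' protocols RNA was extracted with Tri-Reagent and libraries were made with a TruSeq kit, and per the submitters' processing notes the genome build was GRCm38. The aligner and the use of strand were not stated there. The deposited tables hold raw read counts per gene, made by the authors, and the column of total exon reads was used. The file of C57BL/6 replicate 1 holds 3 stacked tables, of which the first was used, since the other 2 equal the tables of replicates 2 and 3. The column named Expression value equals the total exon reads only in the tables labelled IL-6 KO, so it served as an alternative. Depth is given per group in the report, and counts of a few reads carry wide counting error.

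Groups follow the labels. The 3 comparisons were made in 1 fit of all 9 libraries with edgeR 4.0.16 (quasi-likelihood F test, TMM factors 0.887 to 1.10, genes kept by filterByExpr with a minimum count of 10 and a minimum total of 15, common dispersion 0.0524, 6 residual degrees of freedom) in R 4.3.3 with limma 3.58.1, and p-values were adjusted by the Benjamini-Hochberg method over 14415 genes. The SE is the log2 fold change over the square root of F. CPM are reads scaled to the TMM-adjusted library size, and per kilobase they are divided by the exon length in the tables. The fit was also run on simulated counts with 200 changed genes and no library set apart from its group. That run does not cover an outlying library or the larger shares called here, and no result rests on it. DESeq2 1.42.0 and other settings were tried as alternatives. Promoter windows and motifs came from RefSeq tables of GRCm38.p6, and exon overlap from a gene annotation of the same build. Figures were drawn with matplotlib 3.10.9 in Python 3.11.15.

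The genes and lists were chosen with earlier results of these data known. All chain genes enter the counts, and 1 that is not reported here is neither named nor drawn. Each one called in a comparison is given with its value in every library, partner chains of called ones are named with that exception, and from each further list up to 4 called genes per comparison with the smallest p are named.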

Additional observations from a re-analysis of the deposited data

How the results depend on the processing

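Over 19 alternatives, 0 of 43 calls changed direction, namely those of chain genes and of list genes named by smallest p in a comparison. Itga2b and Itgb3, not called with all libraries, did change direction without BALB/c replicate 2, as the report gives (log2 fold changes of -0.25 and 1.13). Of 13 calls of chain genes, 1 held under all of them (Lama1 in libraries labelled IL-6 KO over C57BL/6), and those of Lamb2, Itgb4 and Itgb8 in that comparison and of Lamc3, Lama5 and Itgb7 over BALB/c ended only at a minimum log2 fold change of 1. For BALB/c over C57BL/6, 2 chain genes were called, against 1 with RLE size factors, 1 with library size alone, 1 with no filter on low counts, 1 with the Expression value column, 4 with DESeq2, 4 with only those 2 groups in the fit, 4 with unique exon reads (chosen after seeing the data), 0 at a minimum log2 fold change of 1, and 0 to 5 with 1 library left out. For libraries labelled IL-6 KO over C57BL/6 the 6 calls became 1 at that minimum and 4 to 18 with 1 library left out. Over BALB/c the 5 calls became 8 with the Expression value column, 0 at that minimum and 4 to 13 with 1 library left out. Over all genes, the 491 calls for BALB/c over C57BL/6 became 1033 with DESeq2, 107 at that minimum, and 167 to 977 with 1 library left out; the minimum gave 1121 in place of 5068 and 1141 in place of 5370 in the others. The cause of these changes was not tested.

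Replicate numbers did not pair the libraries: the deviations of the 9 same-numbered pairs correlated at -0.21 to 0.06, and 0 of the libraries correlated best with its own number. With the replicate block, 2 chain genes were called for BALB/c over C57BL/6, 6 for libraries labelled IL-6 KO over C57BL/6 and 6 over BALB/c.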
